A study of Mus musculus with 9 samples.

Results

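RNA of 10 genes around the transcription regulators YAP and SRF was followed in MLP29 cells, a line of mouse hepatic progenitor cells, across 3 conditions. The genes were Yap1, its DNA-binding partner Tead1, its inhibitory kinase Lats2, the YAP target genes Ccn1 (formerly Cyr61), Ccn2 (formerly Ctgf), Ankrd1, Amotl2 and Axl, and Srf with the smooth muscle actin gene Acta2. A probe set, a group of short array probes that is summarised as 1 value, belonged to a gene if the annotation gave it that gene alone. All 10 genes were found, with 21 of the 22626 probe sets analysed. Another probe set carries the names of both Lats2 and Xpo4 and was left out. Where a gene had several probe sets, the one with the highest mean over the 9 arrays stood for it, which gave 1 value for each of 12393 genes.

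Every culture was first starved in 0.1% serum for at least 16 h. The cells then stayed untreated, received HGF/SF1 (20 ng/ml), which activates the receptor Met, or received 10 µg/ml of BMB5, an antibody that blocks the function of α5β1 integrin, the fibronectin receptor. Treatment lasted 24 h, each of 3 independent experiments held 1 array of each condition, and so each mean below has n = 3. The control arrays are labelled Control and described as untreated in the series' design. An IgG control antibody is named in the methods for controls in general, but none of the 9 arrays carries it in its label, so blocking of the integrin and exposure to an antibody cannot be told apart. All cells are of 1 line, and in such bulk RNA fewer cells that express a gene and less of its RNA per cell cannot be told apart.

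YAP is a coactivator that enters the nucleus and works through TEAD factors when the kinases LATS1 and LATS2, the last step of the Hippo cascade, do not phosphorylate it. Cell spreading, adhesion to the matrix and actin tension act on YAP, and on SRF through its actin-sensing cofactors of the MRTF family. Ccn1 and Ccn2 encode secreted matricellular proteins that bind integrins, Ankrd1 a nuclear and sarcomeric ankyrin repeat protein, Amotl2 an angiomotin that holds YAP in the cytoplasm, and Axl a receptor tyrosine kinase. The activity of YAP and SRF is largely set by location and cofactors and was not measured by the arrays, which give RNA levels alone.

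The promoters are shown because the genes are grouped by the factors that bind near them. RefSeq's promoter table for GRCm38.p6 held 8 of the 10 genes, and those of Ccn2 and Tead1 were not analysed here. The TEAD motif GGAATG or its reverse complement CATTCC was searched on both strands from 250 bases before to 50 bases after the start. At least 1 match lay in 7 of the 8 genes (Ccn1, Ankrd1, Amotl2, Axl, Yap1, Lats2 and Acta2), and 14.7% of the 32851 promoters of that length held one. Lats2 has 2 starts in the table, and the second had no match. The CArG box, the motif of SRF, was searched as CCWWWWWWGG, where W is A or T. This strict form was found in 1.63% of all these promoters and in Srf alone among the 8. Its 2 matches there begin 82 and 62 bases before the start. In the Ccn1 promoter the TEAD motif begins 103 bases before the start. Ankrd1 has it at 210 and 123 bases before the start, and Amotl2 at 65. Acta2, a known SRF target, holds the TEAD motif 146 bases before the start and had no match to the strict CArG form in this window. Its bases printed below do hold ccctatatgg and ccttgtttgg, which each differ from that form at 1 base. Such near matches were not searched or marked in any promoter, so the absence of a marked CArG box does not show the absence of an SRF site. A match describes the letters of the window and does not show that a factor binds there. In the 250 bases before the start of 5 of the genes, written 5′ to 3′, capitals mark the TEAD motif or, in Srf, the CArG box.
Ccn1 (chr3:145649986-145650235, minus strand): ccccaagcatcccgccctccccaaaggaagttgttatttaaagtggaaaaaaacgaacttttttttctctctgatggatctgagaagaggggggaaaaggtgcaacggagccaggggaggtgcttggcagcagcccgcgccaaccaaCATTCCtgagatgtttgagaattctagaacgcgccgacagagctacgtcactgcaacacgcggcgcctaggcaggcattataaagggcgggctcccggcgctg
Ankrd1 (chr19:36119845-36120094, minus strand): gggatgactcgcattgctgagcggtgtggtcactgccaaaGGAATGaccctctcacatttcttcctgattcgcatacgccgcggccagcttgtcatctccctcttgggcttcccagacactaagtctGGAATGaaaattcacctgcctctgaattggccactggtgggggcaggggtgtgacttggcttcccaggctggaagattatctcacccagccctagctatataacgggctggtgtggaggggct
Amotl2 (chr9:102717554-102717803, plus strand): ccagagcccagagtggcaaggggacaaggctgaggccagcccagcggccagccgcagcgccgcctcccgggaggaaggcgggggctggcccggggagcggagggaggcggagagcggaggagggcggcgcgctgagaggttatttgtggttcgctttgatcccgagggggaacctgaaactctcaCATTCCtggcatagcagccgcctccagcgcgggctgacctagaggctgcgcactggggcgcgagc
Srf (chr17:46556163-46556412, minus strand): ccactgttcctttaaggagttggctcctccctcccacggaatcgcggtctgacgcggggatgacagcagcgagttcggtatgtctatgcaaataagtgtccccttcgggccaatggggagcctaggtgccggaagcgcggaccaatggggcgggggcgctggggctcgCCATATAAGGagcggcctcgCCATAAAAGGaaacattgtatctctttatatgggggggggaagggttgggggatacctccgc
Acta2 (chr19:34255374-34255623, minus strand): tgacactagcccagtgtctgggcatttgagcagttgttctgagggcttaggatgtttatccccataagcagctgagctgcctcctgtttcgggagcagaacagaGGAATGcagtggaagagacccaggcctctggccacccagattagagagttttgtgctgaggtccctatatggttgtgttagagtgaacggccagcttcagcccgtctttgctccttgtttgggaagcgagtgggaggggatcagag

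After the antibody, Ccn1, Ankrd1 and Tead1 were higher than in untreated cells, and none of the 10 genes was called lower. Ccn1 showed the widest change among them, 3.04-fold, and its log2 fold change ranked 29 among all 12393 genes from the highest down. Calls rest on an unadjusted p under 0.05 in limma, a linear model fitted to all probe sets. By that threshold 3 of the 10 genes were called, against 12.6% of all genes, and in the upward direction 3 against 4.68% of all genes, with 7.92% of all genes called lower. Over probe sets 6 of 21 were called, all upward, against 11.8% of all 22626 in both directions together. These 6 are not independent, since Ccn1 and Ankrd1 gave 2 each, and each pair ran together over the arrays (r = 0.94). The median log2 fold change of the 10 genes was 0.02, beside -0.00 over all genes. With Benjamini-Hochberg adjustment over all probe sets 0 of the 21 passed in limma, where the lowest adjusted p was 0.189. When the fit took the experiment as a block, the same 3 genes were called among the 10, against 18.5% of all genes, while 9 of the 21 probe sets were called, 7 upward and 2 downward, and again 0 passed the adjustment (lowest adjusted p = 0.0662 in limma).

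**Figure D1:**
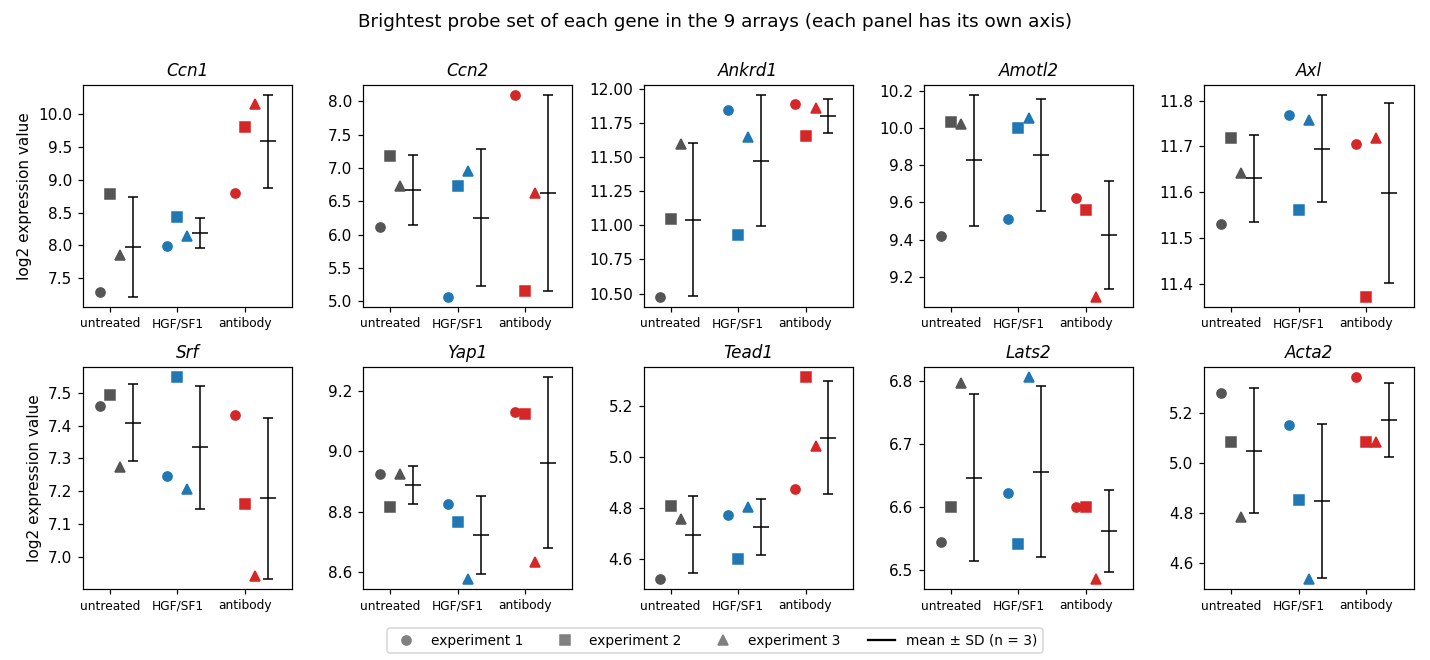
Log2 expression value (vertical axis, own scale in each panel) of the brightest probe set of each gene in the 3 conditions. Symbols are single arrays by experiment, and the dash with its bar is the mean ± SD of 3 arrays. All Ccn1 values after the antibody lie above all untreated values, whereas Ccn2 after the antibody runs from 5.16 to 8.09.

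Ccn1 was listed here among the YAP target genes, and the cause of its change was not tested. Its brightest probe set (1416039_x_at) stood at 7.29, 8.78 and 7.85 on the log2 scale in the untreated arrays of experiments 1, 2 and 3, at 7.98, 8.44 and 8.15 after HGF/SF1, and at 8.79, 9.80 and 10.15 after the antibody. The lowest antibody array thus lay just above the highest untreated one, and these 2 groups did not overlap. For no gene here was the share of all probe sets that separate in this way counted. The means were 7.98 ± 0.75 untreated and 9.58 ± 0.70 after the antibody (SD, n = 3). The log2 fold change was 1.61 (SE 0.43, adjusted p = 0.217), and the difference was 1.50, 1.01 and 2.30 in the 3 experiments. A second probe set (1438133_a_at) gave 1.48 (SE 0.52), with within-experiment differences of 1.33, 1.22 and 1.88, and its groups overlapped by 1 array. Across the 9 arrays the 2 probe sets ran together with r = 0.94. Left out one at a time, no single array ended the call of the brightest probe set, but without experiment 3 it was 1.26 and no longer called. Without the antibody array of experiment 1 it was 2.00 and passed the adjustment (adjusted p = 0.0348 in limma), as did 1088 of all 22626 probe sets. The second probe set passed without experiment 1 (1.55, adjusted p = 0.0458 in limma), in a fit where 550 of all probe sets passed. With all 9 arrays 5 of all probe sets passed. The second probe set lost its call without experiment 2, experiment 3, the untreated array of experiment 1 or the antibody array of experiment 2 or 3, at log2 fold changes between 1.03 and 1.60.

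Ankrd1 also rose, from a level at the 97.1th percentile of all probe sets. Untreated arrays read 10.48, 11.05 and 11.60 by its brightest probe set (1420991_at), HGF/SF1 arrays 11.84, 10.93 and 11.65, and antibody arrays 11.88, 11.66 and 11.86. The antibody values lay close together and above every untreated value, though by little over that of experiment 3. The log2 fold change was 0.76 (SE 0.31, adjusted p = 0.383), and the difference was 1.41 in experiment 1 against 0.61 and 0.26 in experiments 2 and 3. The second probe set (1420992_at) gave 0.89 (SE 0.25, adjusted p = 0.228). It kept its call in all 12 fits that left out 1 array or 1 experiment. The brightest probe set lost its call in 7 of the 12, which were the fits that left out experiment 1 (0.43) or 2 (0.83), the untreated array of experiment 1 (0.48) or 2 (0.76), or the antibody array of experiment 1 (0.72), 2 (0.83) or 3 (0.73).

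The other 3 YAP target genes were not called. Ccn2, the close relative of Ccn1, was measured by 1 probe set (1416953_at), which read 6.12, 7.17 and 6.72 untreated, 5.07, 6.73 and 6.96 after HGF/SF1, and 8.09, 5.16 and 6.63 after the antibody. The antibody arrays held both its highest and, but for 1 HGF/SF1 array, its lowest value, so that the within-experiment difference was 1.97, -2.01 and -0.10. Its log2 fold change of -0.05 had a 95% interval from -1.76 to 1.67, which spans changes as wide as that of Ccn1. Without the antibody array of experiment 1 it was -0.78, and without that of experiment 2 it was 0.69, neither with a call. Amotl2 (1452387_a_at) read 9.42, 10.03 and 10.02 untreated and 9.62, 9.56 and 9.09 after the antibody. Its log2 fold change was -0.40 (SE 0.23), with differences of 0.21, -0.47 and -0.93 in the 3 experiments, and it was called lower with experiment 1 (-0.70) or its untreated array (-0.60) left out. Axl (1423586_at) stayed between 11.37 and 11.77 in all 9 arrays, with a log2 fold change of -0.03 and a 95% interval from -0.32 to 0.26. Its second probe set (1438621_x_at), at the 1.44th percentile of all probe sets, gave 0.02.

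**Figure D2:**
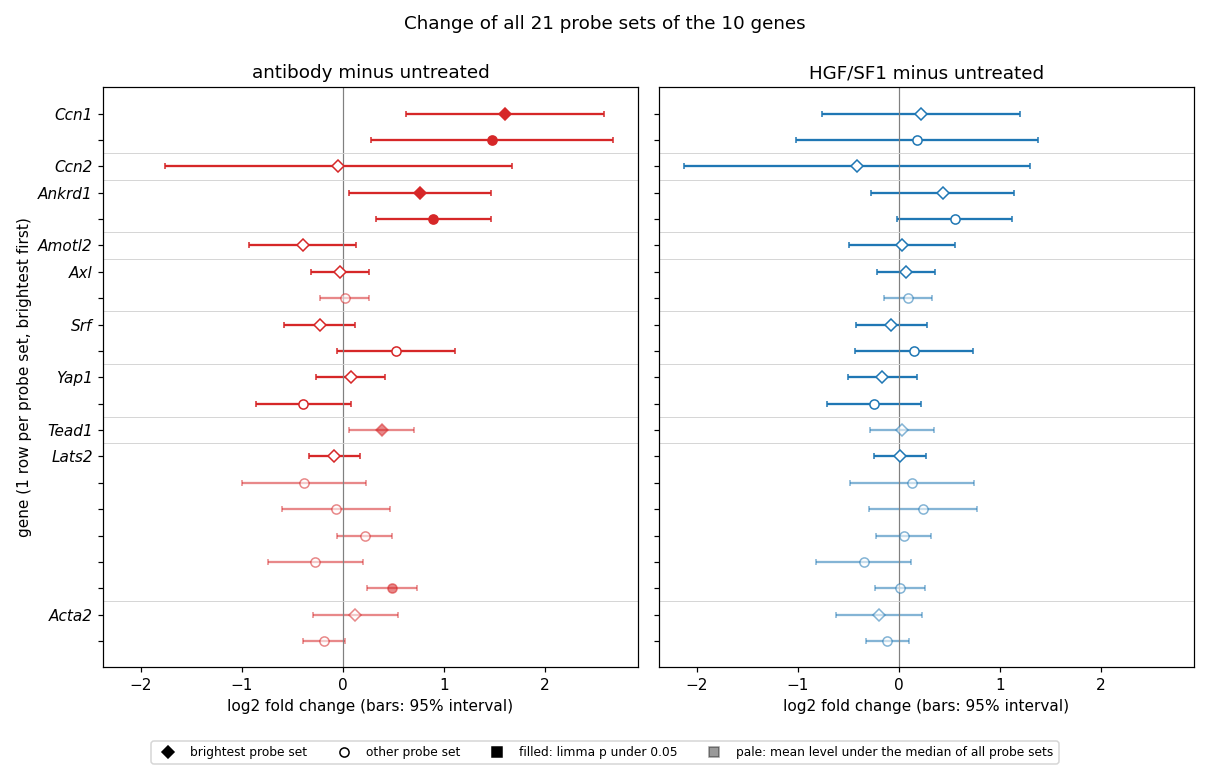
Log2 fold change with its 95% interval (horizontal axis) of all 21 probe sets against untreated cells, for the antibody (left) and HGF/SF1 (right). Filled symbols have a limma p under 0.05 and pale ones a mean level under the median of all probe sets. The 6 filled symbols, all on the left and above 0, belong to Ccn1, Ankrd1, Tead1 and 1 dim probe set of Lats2.

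Among the regulators, Tead1 RNA was called higher and Yap1 was not called. Tead1, a DNA-binding partner of YAP, has 1 probe set (1423434_at), dim at the 39.2th percentile, which read 4.52, 4.81 and 4.76 untreated, 4.77, 4.60 and 4.80 after HGF/SF1 and 4.87, 5.31 and 5.04 after the antibody. Every antibody value lay above every other value, but how many of all probe sets separate in this way was not counted. The log2 fold change was 0.38 (SE 0.14, adjusted p = 0.336), and the call was lost when experiment 2 (0.32) or 3 (0.43), the untreated array of experiment 1 (0.30) or the antibody array of experiment 2 (0.26) was left out. For Yap1 the brightest probe set (1448363_at) read 8.92, 8.82 and 8.92 untreated, 8.83, 8.76 and 8.58 after HGF/SF1 and 9.13, 9.12 and 8.64 after the antibody. Its log2 fold change was 0.07, with a 95% interval from -0.26 to 0.41. The second Yap1 probe set (1416487_a_at) pointed down in each experiment, by -0.20, -0.27 and -0.70, with a log2 fold change of -0.39 (SE 0.20) and a call under the block on experiment. Across the 9 arrays these 2 probe sets did not run together (r = -0.20).

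Lats2 RNA had 6 probe sets that differed in direction. The brightest (1419678_at) read 6.54, 6.60 and 6.80 untreated and 6.60, 6.60 and 6.49 after the antibody, with a log2 fold change of -0.08 (95% interval from -0.34 to 0.17). A dim one (1425420_s_at), at the 24.7th percentile, read 3.81, 3.68 and 3.88 untreated, 3.63, 3.90 and 3.85 after HGF/SF1 and 4.33, 4.28 and 4.20 after the antibody. It had the lowest p of the 21 probe sets. The antibody arrays overlapped neither other group and stood 0.48 above the untreated ones on the log2 scale (SE 0.11, adjusted p = 0.189 in limma). There was a call in all 12 fits that left out 1 array or 1 experiment. The other 4 lay below the median of all probe sets and gave log2 fold changes of -0.38 (1437101_at), -0.07 (1439441_x_at), 0.21 (1426156_at) and -0.27 (1419679_at). None of these 4 was called, though the last was called under the block on experiment.

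Srf itself was not called and its 2 probe sets pointed apart. The brighter (1418255_s_at) read 7.46, 7.49 and 7.27 untreated, 7.25, 7.55 and 7.21 after HGF/SF1 and 7.43, 7.16 and 6.94 after the antibody, a log2 fold change of -0.23 (SE 0.15). The other (1418256_at) read 6.33, 6.72 and 6.65 untreated, 6.48, 6.82 and 6.84 after HGF/SF1 and 6.51, 7.18 and 7.57 after the antibody, a log2 fold change of 0.52 (SE 0.26) and a call under the block on experiment. Over the 9 arrays they ran in opposite directions (r = -0.73). Without the antibody array of experiment 1 both were called, the brighter lower at -0.36 and the other higher at 0.81. No direction for Srf RNA can be read from these values.

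Acta2, a contractile actin that SRF drives in smooth muscle and myofibroblasts, was dim. The brighter probe set (1416454_s_at) lay at the 41.1th percentile and read 5.28, 5.08 and 4.78 untreated, 5.15, 4.85 and 4.54 after HGF/SF1 and 5.34, 5.08 and 5.08 after the antibody. The 3 conditions overlapped. The log2 fold change after the antibody was 0.12, with a 95% interval from -0.30 to 0.55. The second probe set (1456658_at), at the 17.1th percentile, gave -0.19, and was called only without the untreated array of experiment 2 (-0.25).

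**Figure D3:**
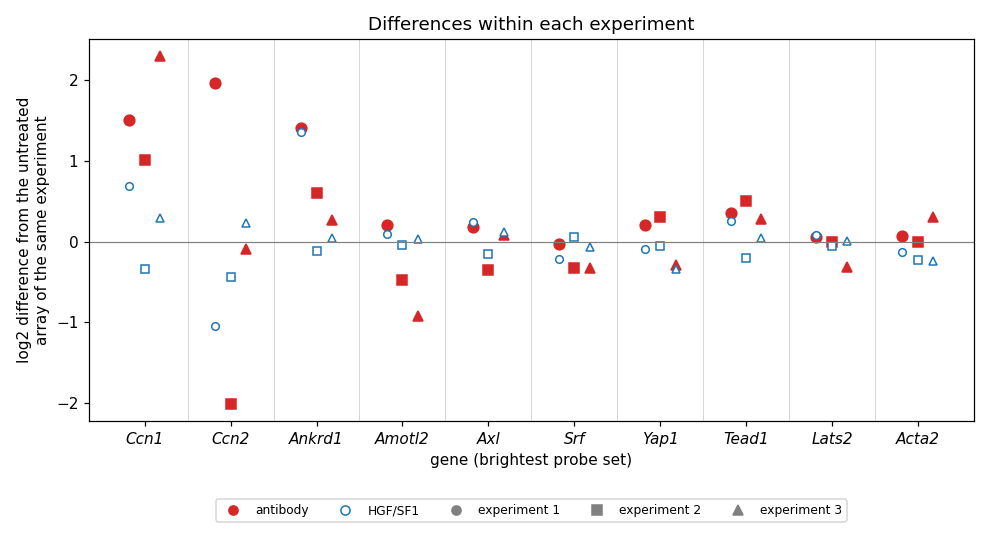
Log2 difference from the untreated array of the same experiment (vertical axis) for the brightest probe set of each gene, with filled red symbols for the antibody and open blue ones for HGF/SF1. Ccn1, Ankrd1 and Tead1 were above 0 in all 3 experiments after the antibody, and Ccn2 ran from -2.01 to 1.97.

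HGF/SF1 moved none of the 10 genes past the threshold. In limma 0 of the 10 and 0 of the 21 probe sets had an unadjusted p under 0.05, against 0.839% of all genes and 0.849% of all probe sets, and no probe set of the table passed the adjustment. The untreated arrays serve both this comparison and that of the antibody. The widest value belonged to Ankrd1, whose second probe set gave a log2 fold change of 0.55 (SE 0.25) and whose brightest gave 0.43. This rested on experiment 1, where the difference of the brightest was 1.36 against -0.12 and 0.05 in the others, and without experiment 1 it was -0.04. Without the HGF/SF1 array of experiment 2 it was called at 0.70, and without the untreated array of experiment 3 at 0.71. Ccn1 gave 0.21, with a 95% interval from -0.77 to 1.20, Ccn2 -0.42, with an interval from -2.13 to 1.29, and the other 7 genes lay between -0.20 and 0.07 by their brightest probe sets. With the experiment as a block 1 dim probe set of Lats2 (1419679_at) was called lower at -0.35.

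Set directly against HGF/SF1, the antibody gave higher Ccn1 and Tead1. Of the 10 genes 2 were called, against 14.1% of all genes, and of the 21 probe sets 4, against 13.2% of all. The fourth was the dim Lats2 probe set, at 0.48. Ccn1 differed by 1.39 on the log2 scale (SE 0.43, adjusted p = 0.232), and by 0.81, 1.36 and 2.01 within the experiments. Tead1 differed by 0.35 (SE 0.14). Ankrd1 did not reach the threshold (0.33, 95% interval from -0.38 to 1.03), and its HGF/SF1 arrays overlapped the antibody arrays. Ccn1 lost its call without experiment 3 (1.08) and Tead1 without experiment 2 (0.17) or 3 (0.41), without the HGF/SF1 array of experiment 1 (0.38) or 2 (0.29) and without the antibody array of experiment 2 (0.23) or 3 (0.37). With the experiment as a block, Acta2 was also called, higher by 0.32, and the call share of all genes was 20.3%. Under that block 7 of the 21 probe sets were called, 6 higher and 1 lower, among them the second probe set of Srf at 0.38.

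The wider Hippo and SRF pathways were read from 98 further genes in 6 lists, of which 85 had a probe set that carries their name alone. After the antibody 12 of the 85 were called in limma, 5 higher and 7 lower, against 12.6% of all genes. HGF/SF1 brought 1 call among the 85, against 0.839% of all genes. With the experiment as a block the antibody count was 24, of which 15 were higher, against 18.5% of all genes. None passed the adjustment against untreated cells in either fit. Leaving out the antibody array of experiment 1 gave 22 calls, among them all 12, whereas leaving out the antibody array of experiment 2 or 3 left 2 or 3 of the 12. Leaving out the untreated array of experiment 1, 2 or 3 left 4, 3 or 9, and an HGF/SF1 array 7 or 8. Over all 22626 probe sets 2674 were called with all 9 arrays. Without the antibody array of experiment 1, 2 or 3 that count was 4014, 1607 or 1953. All 12 kept their direction in each of these fits.

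In the Hippo cascade, 4 of 17 genes were called lower after the antibody and 1 higher, beside 7.92% and 4.68% of all genes. Under the block on experiment 7 were called, 4 higher and 3 lower, against 18.5% of all genes. The scaffold Sav1, which brings the kinases together, read 8.90, 8.83 and 8.73 untreated and 8.75, 8.31 and 7.93 after the antibody, with a log2 fold change of -0.49 (SE 0.18). Wwc1 (KIBRA), which activates LATS kinases, was lower at a log2 fold change of -0.36, with antibody arrays from 10.85 to 11.11 and untreated arrays from 11.25 to 11.44. The LATS cofactor Mob1b (-0.47) and the tumor suppressor Nf2 (-0.44), both named after their values were seen, completed the group that was lower, but Mob1b lost its call under the block. Map4k4, a kinase that acts on LATS beside the Hippo kinases, was higher by 0.67 (SE 0.24). All 4 of its probe sets pointed up, and 1 of them was called. Of the 4 probe sets of Wwc1 and the 2 of Sav1 none pointed up, and 1 was called for each gene. After HGF/SF1 the smallest p of this list belonged to Taok3 and Limd1, at log2 fold changes of 0.35 and 0.18 without a call. None of the 6 measured genes around YAP and TEAD1 was called without the block, against 12.6% of all genes. Among them Tead2 gave 0.43, Tead4 -0.26 and the TEAD cofactor Vgll1 -0.18. The block brought calls for Tead2, higher, and Tead4, lower, against 18.5% of all genes.

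Of 18 other YAP and TEAD target genes 2 were called higher and 1 lower, beside 12.6% of all genes in both directions together. Tgfb2, a cytokine that drives epithelial cells to a mesenchymal state, read 7.51, 7.80 and 8.81 untreated, 8.11, 8.30 and 7.81 after HGF/SF1 and 8.84, 10.38 and 9.74 after the antibody. Its log2 fold change was 1.61 (SE 0.43, adjusted p = 0.217), and all 3 of its probe sets were called. The stress gene Gadd45a read 7.71, 7.95 and 8.61 untreated and 7.89, 10.60 and 10.84 after the antibody, so that its log2 fold change of 1.69 came from experiments 2 and 3. Fjx1, a homolog of a fly Golgi kinase, was lower at a log2 fold change of -0.31. After HGF/SF1 the smallest p belonged to Birc5 (-0.69) and Foxf2 (-0.34), without a call.

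**Figure D4:**
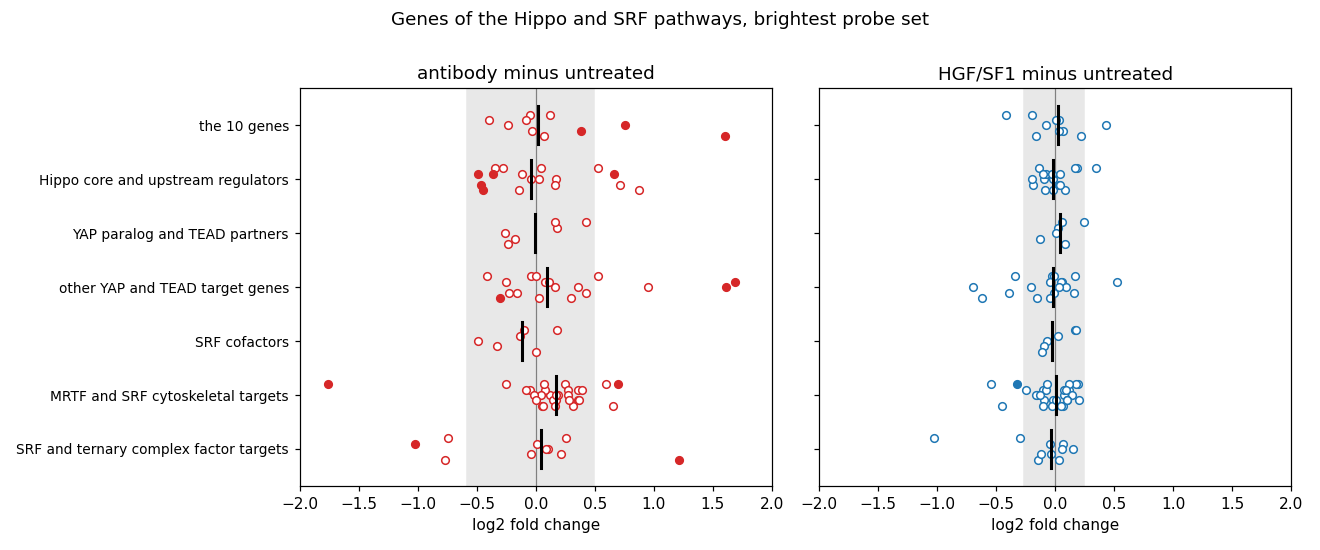
Log2 fold change (horizontal axis) of each gene's brightest probe set against untreated cells, by list, after the antibody (left) and HGF/SF1 (right). Filled symbols have a limma p under 0.05, black bars are list medians and the grey band runs from the 5th to the 95th percentile of all genes. Tgfb2, Gadd45a and Ccn1 stand farthest to the right after the antibody, and Fhl1 farthest to the left.

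Of the SRF cofactors 0 of 6 were called in limma after the antibody, and 2 with the experiment as a block, against 12.6% and 18.5% of all genes. These 2, both lower by their brightest probe sets, were Elk4 (-0.49), a ternary complex factor, and Mrtfa (-0.33), the actin-sensing coactivator. Of the 3 probe sets of Elk4, however, 2 had a log2 fold change above 0. Myocd (0.18) was not called, nor was Elk1 after HGF/SF1 (0.17). Among 29 cytoskeletal targets of MRTF and SRF 1 was called in each direction, against 12.6% of all genes, while 24 of the 29 had a log2 fold change above 0, beside 6159 of 12393 genes in all. Their median was 0.17. The caldesmon gene Cald1, which binds actin and myosin, read 10.72, 11.44 and 11.43 untreated and 11.54, 12.23 and 11.90 after the antibody, with a log2 fold change of 0.69 (SE 0.24). Fhl1, a LIM domain gene of muscle, read 6.81, 8.28 and 6.13 untreated and 5.74, 5.11 and 5.11 after the antibody, with a log2 fold change of -1.76 (SE 0.63). Tpm4, a tropomyosin, gave 0.39 and Csrp1, a LIM protein of the actin cytoskeleton, 0.66. With the experiment as a block 7 of the 29 were called, 6 higher, against 18.5% of all genes. Lmod1, a dim leiomodin gene, was the only pathway gene called after HGF/SF1, at -0.32 (SE 0.13).

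The immediate early genes that SRF serves with ternary complex factors split, with 2 called beside 12.6% of all genes. Of 10 the orphan receptor gene Nr4a1 was called higher, with antibody arrays at 7.07, 7.80 and 9.38 against 6.68, 7.01 and 6.93 untreated (log2 fold change 1.21). Ier2 was called lower, with antibody arrays at 8.57, 6.80 and 8.19 against 8.57, 8.82 and 9.23 (-1.02). Egr3 gave 0.10. The growth response gene Egr1 spread widely, with antibody arrays at 6.91, 3.91 and 9.18 against 7.26, 7.51 and 7.47 untreated, and was not called (-0.75, SE 1.11).

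Against HGF/SF1, 9 of the 85 pathway genes were called after the antibody, 6 higher and 3 lower, against 14.1% of all genes. Higher were Tgfb2 (1.58), Csrp1 (1.11), Map4k4 (0.75), Tpm4 (0.64), Birc5 (1.06) and the tissue factor gene F3 (1.16), and lower were Nf2 (-0.52), Limd1 (-0.46) and Wwc1 (-0.33). F3 was named after its values were seen. It was the only 1 of the 85 to pass the adjustment under the block on experiment (adjusted p = 0.0468 in limma), beside 140 of all 12393 genes. In that fit 22 of the 85 were called, against 20.3% of all genes.

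Over the 9 arrays, the genes whose brightest probe sets ran most like that of Ccn1 were Hspb11 (r = 0.98), Cish (0.98), Tbc1d1 (0.97), Ecpas (0.96) and Hcfc1r1 (0.95), out of 6722 candidates with a mean above the median. Those most like the brighter Srf probe set (1418255_s_at) were Ttc8 (0.96), Pms2 (0.94), Dipk2a (0.93), Mrpl51 (0.93) and Mylk (0.93). Mylk encodes the myosin light chain kinase of the contractile apparatus. The other Srf probe set (1418256_at) ran opposite to the brighter over the same arrays (r = -0.73). The Srf list therefore holds for the brighter probe set alone. These values describe the same 9 arrays, which share treatments and experiments.

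The markers of the labelled cell type were present in part. Of 12 progenitor and epithelial markers 7 had a mean above the median of all probe sets (6.02), namely Krt8, Krt18, Krt19, Krt7, Cdh1, Hnf4a and Cd24a, while Epcam, Afp, Alb, Sox9 and Prom1 lay below it. None of 10 fibroblast and stellate markers lay above the median, and of 6 endothelial markers 1 (Eng) did. Of 8 macrophage markers Cd14 and Cd68 lay above it and Ptprc, Adgre1, Csf1r, Itgam, Fcer1g and Tyrobp below. The mean level of these 8 ran from 5.21 to 5.24 untreated, from 5.24 to 5.34 after HGF/SF1 and from 5.46 to 5.54 after the antibody. In that list only Cd68, a lysosomal protein gene, was called after the antibody (2.60, SE 0.65), and its part in the results above was not tested. Array medians lay between 5.91 and 6.08. The log2 difference of the 3′ and 5′ β-actin controls ran from 0.20 to 0.87 untreated, from 0.30 to 0.75 after HGF/SF1 and from 0.23 to 0.37 after the antibody, and its part was not tested.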

How the data were processed

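RNA of 9 MLP29 cultures was hybridised to Affymetrix Mouse430A_2 arrays. All arrays went through affylmGUI in 1 batch with the rma method of background correction, and the authors deposited log2 expression values, 1 per probe set and array. The normalization between arrays and the summary per probe set are not given in the sources used here, and values were used as deposited. Of 22690 probe sets 64 controls were left out. The annotation gave 1 gene to 20380 of the other 22626, and 20351 matched RefSeq of GRCm38.p6, which updated symbols. A mean per condition was fitted in limma 3.58.1 (R 4.3.3) to all 9 arrays with no filter on low values, and eBayes moderated the spread (residual degrees of freedom 6, prior 2.39). Tests were two-sided, called at an unadjusted p under 0.05 and adjusted by Benjamini-Hochberg over 22626 probe sets. The fit was tested on simulated data with independent errors and no effect of the experiment. That test therefore does not cover the correlation of arrays within an experiment. Depth has no counterpart on an array, and 3 arrays per condition limit the precision.

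The 3 experiments were told apart by the number that ends each title, each with 1 array of each condition. The titles do not say what that number stands for. Deviations from the condition means correlated at 0.0958 to 0.591 between conditions within an experiment, and at -0.484 to 0.0308 otherwise. The experiment as a block was an alternative, as were a random block, median centring, quantile normalization, a filter on the median level, the mean of a gene's probe sets, trend and robust moderation, and leaving out each experiment or array.

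The genes, lists and tests were chosen with earlier results of these data known. Besides the 10 genes, up to 3 genes per list with the smallest p after the antibody and up to 2 after HGF/SF1 were named. Also named were the 5 genes most like the brightest probe sets of Ccn1 and Srf.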

Additional observations from a re-analysis of the deposited data

How the results depend on the processing

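Among the 10 genes, the count called after the antibody (3) was 3 under the replicate block, the random block, median centring, quantile normalization, the mean of a gene's probe sets and the moderation with trend, and 2 of 8 genes above the median level, since Tead1 lies below it. Leaving out an array or an experiment gave 1 to 3 against untreated cells, 0 to 1 for HGF/SF1 and 1 to 3 for antibody against HGF/SF1, where the filter gave 1. For the other pathway genes the replicate block gave 24 calls against untreated cells and 22 against HGF/SF1, and the random block 21 and 15. Over all 22626 probe sets the replicate block called 4114 and 4490 and the random block 3684 and 4051, beside 2674 and 2978 without a block. After HGF/SF1 median centring and the filter each gave 0. Leaving out arrays or experiments gave 3 to 22, 0 to 3 and 4 to 22 calls in the 3 comparisons. Over all probe sets the calls in these fits ran from 912 to 4014, from 123 to 366 and from 1257 to 4114. No paired call was lost among the 10 genes.

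Signs turned only for changes that were not called. After the antibody, Ccn2 was 0.011 under median centring and 0.011 under quantile normalization and ran from -1.05 to 0.94 without an array or experiment, and Axl was 0.025 under median centring and ran from -0.14 to 0.13. The mean of all probe sets turned Srf to 0.15 (and to 0.035 after HGF/SF1 and 0.11 against HGF/SF1), Yap1 to -0.16 and Acta2 to -0.033. Without an array or experiment Yap1 ran from -0.042 to 0.25, Lats2 from -0.16 to 0.028 and Acta2 from -0.011 to 0.24. After HGF/SF1 the ranges were -0.13 to 0.62 for Ccn1, -0.77 to 0.17 for Ccn2, -0.035 to 0.71 for Ankrd1, -0.17 to 0.20 for Amotl2, -0.021 to 0.18 for Axl, -0.080 to 0.15 for Tead1 and -0.065 to 0.085 for Lats2. For antibody against HGF/SF1 they were -0.95 to 1.35 for Ccn2, -0.16 to 0.017 for Axl and -0.17 to 0.018 for Lats2. The cause was not tested. Where a fit left 2 arrays in a condition, the spread was taken from all conditions. Several genes lie at dim levels, where the arrays limit what a change can show.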
